A study of Forsythia suspensa with 2 samples.

Results

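The transcripts described here were nearly confined to the leaf of Forsythia suspensa, a deciduous shrub of the olive family grown for its early yellow flowers and used in East Asian medicine. Their level in the leaf library was at least 32 times their level in the flower library. No other tissue was sampled, so confined here means leaf against flower only. The level of a transcript is its expected count plus 2, divided by the total of its library, and the expected count is the RSEM program's estimate of the sequenced fragments that came from the transcript. By this rule 151 of 81913 assembled transcripts were chosen, which is 0.184% of the set. The members were thus chosen by their ratio of leaf over flower counts, so every ratio below is a description and was not tested.

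The study sampled 1 flower and 1 leaf library of F. suspensa, each from plants aged 2 years that grew outdoors, with no treatment listed. The leaf library held 7234013 expected counts and the flower library 7442016. With 1 library per tissue there was no measure of the spread between plants, so no difference could be checked against replicates. Whether flower and leaf were taken from the same plant, and whether plants were pooled, is not stated. The files name transcripts by assembly identifier only, so no leaf or flower marker gene could be matched and the tissue labels could not be checked in this way. In such bulk samples, fewer cells of a type and less RNA per cell cannot be told apart.

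A foliage leaf is the main site of photosynthesis, and its nuclear transcripts commonly include those for light-harvesting proteins, the small subunit of Rubisco and the enzymes of carbon fixation, together with enzymes of defence compounds. Forsythia blooms before or while its leaves unfold, and its flower unites petals, stamens, carpels and green sepals. Selection by oligo(dT), used for these libraries, favours nuclear messages over those of the chloroplast, which mostly lack a long poly(A) tail. None of the transcripts below is assigned to any of these functions, since the files give no sequence or gene name.

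The leaf-confined transcripts were few but together took a measurable part of the leaf RNA. They held 163136 leaf counts, 2.26% of the library (exact 95% binomial interval 2.24 to 2.27), and 2483 flower counts, 0.0334% of that library (0.0321 to 0.0347). In TPM, the authors' unit that divides counts by effective length before scaling, their share was 2.48% in leaf and 0.0314% in flower. Intervals here and below cover counting error only, since neither tissue has a replicate. They take no account of the choice of members by the same counts. Copies made by PCR cannot be recognised in these files, so the intervals do not allow for them either. The 10 most abundant members alone supplied 60024 of these leaf counts, or 36.8%.

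The leaf-confined transcripts covered a wide range of leaf abundance below the very top. The lowest member had 61 leaf counts, the median 402 and the highest 8548, which correspond to 8.43, 55.6 and 1182 CPM (the count divided by the library total and multiplied by 1000000). No member was among the 10 most abundant leaf transcripts by count (0 of 10), 3 were among the first 100, and 43 were among the first 1000. In TPM the numbers among the first 10, 100 and 1000 were 0, 4 and 47. At the lower end the rule itself sets a limit, since a transcript with no flower count needs at least 61 leaf counts to reach a ratio of 32. Of the 15719 transcripts with that many leaf counts, the 151 members were 0.961%.

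**Figure D1:**
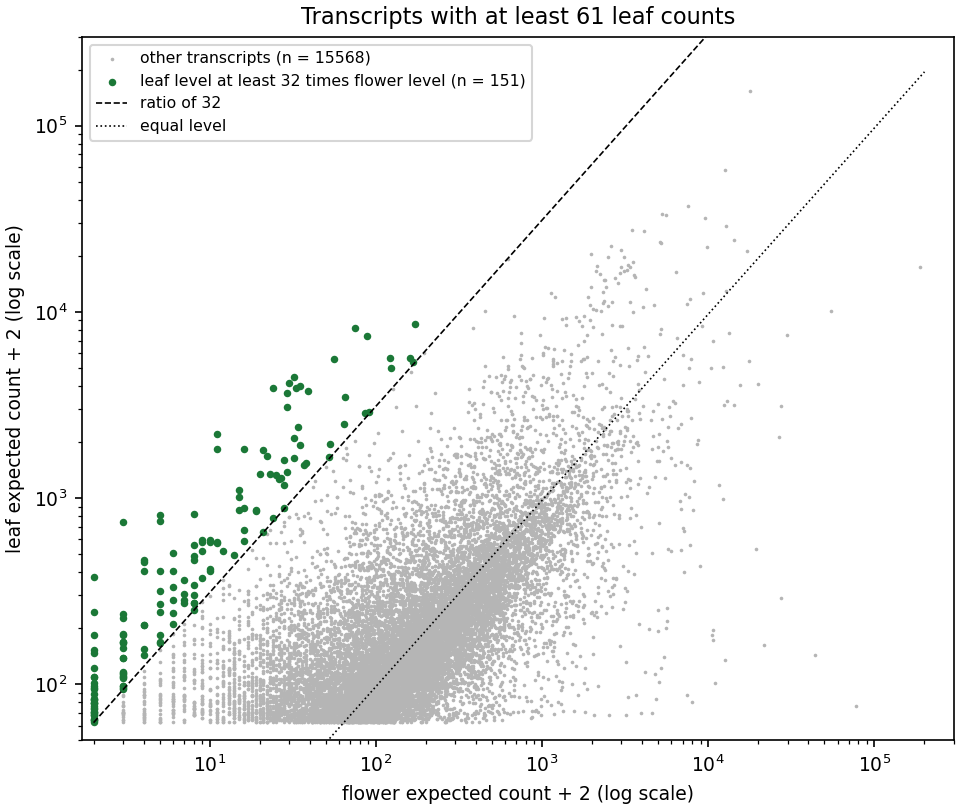
Expected count plus 2 in flower (horizontal, log scale) against leaf (vertical, log scale) for the 15719 transcripts with at least 61 leaf counts. Green points are the 151 members, above the dashed line of a ratio of 32, and they reach at most 171 flower counts. The dotted line marks equal levels.

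Members made up a larger share of the abundant leaf transcripts than of the scarce ones. They were 26 of 4281 transcripts (0.607%) with 61 to 99 leaf counts and 42 of 7221 (0.582%) with 100 to 299. The share was 40 of 3216 (1.24%) with 300 to 999 leaf counts, 26 of 735 (3.54%) with 1000 to 2999, and 17 of 266 (6.39%) with 3000 or more. The leaf count enters the ratio that chose the members, and the added count of 2 weighs most on low counts, so this order is a description of the chosen set.

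The most abundant member by count was TR19595|c0_g1_i1|c0_g1_i1, of 1450 bases, with 8548 counts in leaf (1182 CPM) and 171 in flower (23.0 CPM). Leaf exceeded flower 51.4-fold without the added count (exact 95% interval 44.2 to 60.2, conditional on the total count). It ranked 72nd among all leaf transcripts and carried the highest flower count of any member. TR47984|c0_g1_i1|c0_g1_i1, of 627 bases, followed with 8202 leaf and 73 flower counts, a ratio of 116-fold (91.8 to 148). Being short, it was the most abundant member per length, with 2431 TPM in leaf and 20.3 TPM in flower. The next member, TR29822|c1_g2_i4|c0_g1_i1, had 7396 leaf and 87 flower counts. These 3 transcripts alone passed 1000 CPM in leaf, and each had at least 73 flower counts.

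The other 7 of the 10 most abundant members ranged from close to the limit of the rule to well past it. TR48058|c0_g1_i1|c0_g1_i1 had 5393 leaf and 166 flower counts, 33.4-fold (28.6 to 39.2). TR47877|c0_g1_i1|c0_g1_i1 had 5657 and 158, which is 36.8-fold (31.4 to 43.4). The lower bounds of both lay under 32. TR15413|c0_g1_i1|c0_g1_i1, with 4986 leaf and 121 flower counts, stood at 42.4-fold (35.4 to 51.2), and TR19401|c0_g1_i1|c0_g1_i1, with 5671 and 120, at 48.6-fold (40.6 to 58.7), both intervals lying above 32. Further out, TR22232|c0_g1_i1|c0_g1_i1 had 5591 leaf and 54 flower counts, 107-fold (81.5 to 142). TR1143|c0_g1_i1|c0_g1_i1 had 4438 and 30, and TR47976|c0_g1_i1|c0_g1_i1 had 4142 and 28. Both stood at 152-fold, with intervals of 106 to 226 and 105 to 229, so the flower held about 0.657% of their leaf level.

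**Figure D2:**
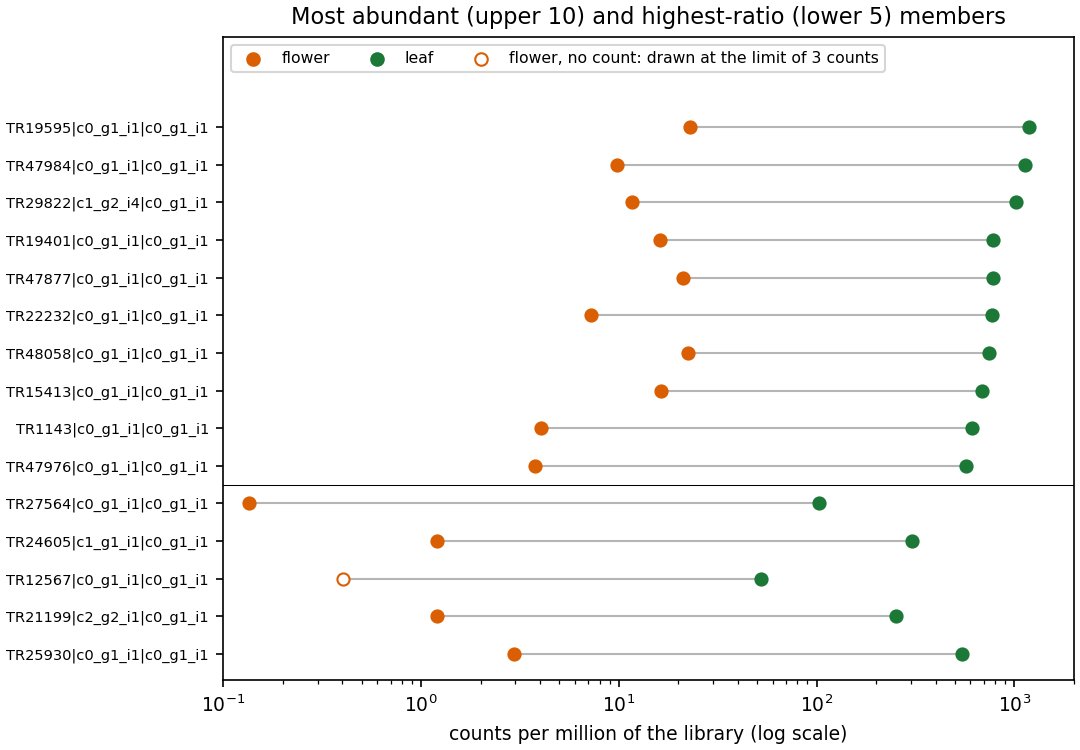
CPM in flower (orange) and leaf (green) for the 10 most abundant members (above the line) and the 5 with the highest ratio (below it), on a log scale. An open circle marks no flower count, drawn at the limit of 3 counts (0.403 CPM). The 10 abundant members lie between 573 and 1182 CPM in leaf and between 3.76 and 23.0 CPM in flower.

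Ratios of at least 128 were found for 10 members, or 0.0122% of all transcripts, and none reached 256 (0 of 151). The members' ratios, with the added count of 2, ran from 32.2 to 255 with a median of 49.997, while the median over the 15719 transcripts with at least 61 leaf counts was 1.06. A ratio of at least 64 was reached by 43 members (0.0525% of all transcripts). The highest ratio was that of TR27564|c0_g1_i1|c0_g1_i1, of 1407 bases, with 741 leaf counts and 1 flower count. Its ratio without the added count was 762-fold, with an interval from 136 to 30150, so its size is poorly fixed. TR24605|c1_g1_i1|c0_g1_i1, of 755 bases, came next with 2197 leaf and 9 flower counts, 251-fold (132 to 550).

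TR12567|c0_g1_i1|c0_g1_i1, of 795 bases, had 377 leaf counts and none in flower. Leaf was 129-fold higher when the flower is set at the limit of 3 counts and the leaf count is taken as exact. The lower bound of its exact interval, the kind given for the other transcripts, was less, at 104.6-fold. TR21199|c2_g2_i1|c0_g1_i1, of only 316 bases, had 1835 leaf and 9 flower counts, 210-fold (110 to 459). The fifth, TR25930|c0_g1_i1|c0_g1_i1, of 2174 bases, had 3914 leaf and 22 flower counts, 183-fold (121 to 292). Of these 5 transcripts, 3 rest on 9 or more flower counts, and their lower bounds all exceeded 100. The 5 were picked as the highest ratios, and the intervals take no account of that choice.

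The flower library held traces of most members. At least 1 flower count was assigned to 120 of the 151, and for these the flower level was between 0.131% and 2.99% of the leaf level, with a median of 1.28%. By number of flower counts, 31 members had none, 21 had 1, 22 had 2 to 4 and 25 had 5 to 9. A further 14 had 10 to 19, 24 had 20 to 49, and 14 had 50 or more. The flower level was thus measured on fewer than 10 counts for 99 members and on at least 10 for 52.

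**Figure D3:**
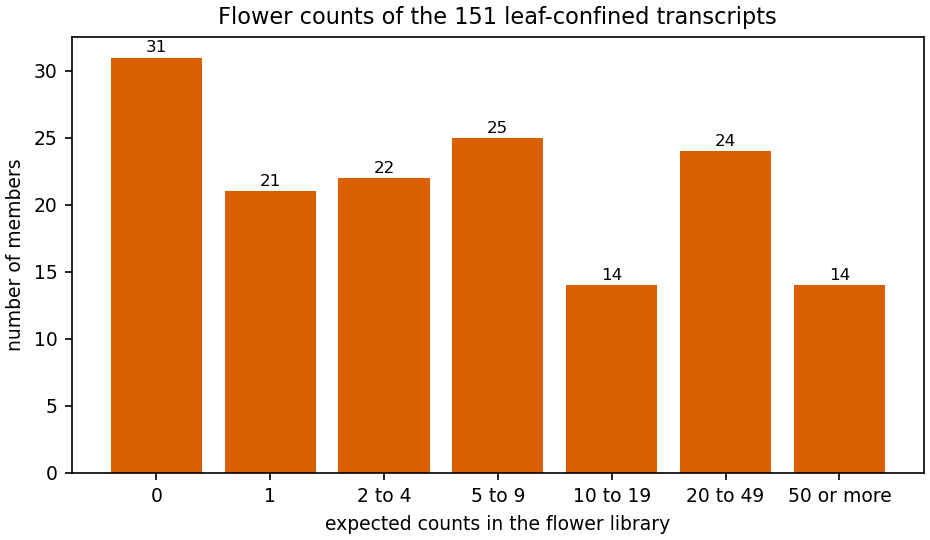
Number of members (vertical) by their expected counts in the flower library (horizontal). No count was assigned to 31 members, 1 count to 21, and 50 or more to 14.

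All abundant members were seen in flower. The 43 with at least 1000 leaf counts had between 9 and 171 flower counts with a median of 30, and their flower level was 0.398% to 2.99% of the leaf level, with a median of 1.51%. The upper end of this range is set by the rule, and the lower end is not.

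The 31 members without a flower count were mostly scarce. They had 61 to 377 leaf counts with a median of 80, and 22 of them had fewer than 100. The rule shapes this, since members with 1 flower count started at 92 leaf counts. Under the rule, any scarcer member had to be without a flower count. A count of 0 allows up to 3 counts, or 0.403 CPM in flower. With the flower set at this limit, the leaf level was 20.9-fold to 129-fold higher, with a median of 27.4-fold. These limit ratios take the leaf count as exact. The lower bounds of the exact intervals, the kind given for other members, were less, from 16.5-fold to 104.6-fold. After TR12567|c0_g1_i1|c0_g1_i1 the most abundant was TR29995|c4_g1_i2|c0_g1_i1, of 499 bases, with 241 leaf counts. Its limit ratio was 82.6-fold and its exact lower bound 66.7-fold. TR50818|c0_g1_i1|c0_g1_i1, of 295 bases, had 181 leaf counts, a limit ratio of 62.1-fold and an exact lower bound of 49.96-fold. TR29182|c0_g1_i1|c0_g1_i1 had 151 and TR32587|c0_g1_i1|c0_g1_i1 had 145 leaf counts, with limit ratios of 51.8-fold and 49.7-fold. Their exact lower bounds were 41.6-fold and 39.9-fold. Absence from the flower was not shown for any of these transcripts.

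Counting error blurs the edge of the group. The interval of the ratio without the added count takes no account of the choice of members by the same counts. It lay wholly above 32 for 70 of the 151 members. Conversely, among transcripts with at least 61 leaf counts, it reached 32 for 284 that were not chosen, 75 of which had a ratio of at least 32 before the 2 counts were added. Transcripts were more numerous at lower ratios, and 457 transcripts (0.558%) had a leaf level at least 16 times the flower level. Just inside the limit stood TR19811|c0_g1_i1|c0_g1_i1, with 92 leaf counts, 1 flower count and a ratio of 32.2 with the added count. TR24315|c1_g1_i1|c0_g1_i1 (249 leaf and 6 flower counts, 32.3) and TR13006|c0_g2_i1|c0_g1_i1 (659 and 19, 32.4) were the next. Just outside stood TR25912|c0_g1_i1|c0_g1_i1 (184 leaf and 4 flower counts, 31.9), TR21012|c0_g1_i1|c0_g1_i1 (6010 and 193, 31.7) and TR23318|c0_g1_i1|c0_g1_i1. That last transcript, of 1075 bases, ranked 20th in leaf with 19250 counts against 624 in flower, at 31.6, and is more abundant than any member.

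The leaf-confined transcripts were shorter than other transcripts with as many leaf counts. Their median length was 1323 bases, with quartiles of 782.5 and 1788.5 and extremes of 227 and 4314. The other 15568 transcripts of at least 61 leaf counts had a median of 1669 bases. Length was not part of the rule, although counts grow with length and the rule sets a minimum of counts. Transcripts over 2000 bases were 21 of the members (13.9%) but 35.9% of the others, and transcripts of at most 500 bases were 12 of the members (7.95%) and 3.27% of the others. Over the whole assembly, which is mostly scarce transcripts, the median was 449 bases.

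The members had the lower median length in each of 5 classes of leaf abundance. The members' median was 917 bases against 1459 for the others at 61 to 99 leaf counts, and 1283.5 against 1723 at 100 to 299. At 300 to 999 leaf counts it was 1214.5 against 1851, at 1000 to 2999 it was 1491 against 1709, and at 3000 or more it was 1496 against 1749. Within these classes the leaf counts of members and others were similar, with medians of 77 and 77 in the first and 4438 and 5288 in the last.

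Shortness was not particular to ratios past 32. Among transcripts of at least 61 leaf counts, the median length was 1721 bases at ratios of 1 to 2, 1527 at 2 to 4, 1399 at 4 to 8, 1343 at 8 to 16 and 1317 at 16 to 32. It was 1320 at 32 to 64, 1333 at 64 to 128 and 1160 for the 10 members past 128. The medians of all classes from 8 to 128 thus lay within 1317 to 1343 bases, members or not. Transcripts at least 32 times higher in flower than in leaf, 792 in number (0.967% of all), were short as well, with a median of 1109.5 bases against 1643 for others with at least 64 flower counts.

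**Figure D4:**
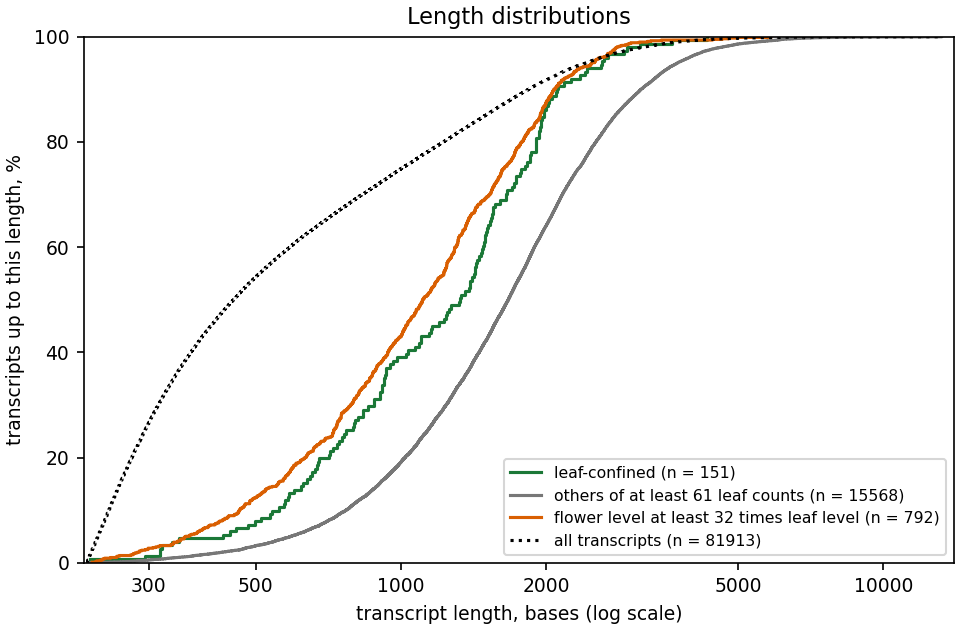
Cumulative share of transcripts (vertical, %) by length in bases (horizontal, log scale). Members (green, median 1323) lie to the left of other transcripts of at least 61 leaf counts (grey, median 1669) and to the right of transcripts confined to the flower by the mirrored rule (orange, median 1109.5). The dotted line is the whole assembly.

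Of the members by length, the longest was TR34270|c0_g1_i3|c0_g1_i1, of 4314 bases, with 313 leaf and 3 flower counts. TR30899|c0_g1_i1|c0_g1_i1, of 3650 bases, had 884 leaf and 26 flower counts, and TR25588|c0_g1_i1|c0_g1_i1, of 3128 bases, had 402 and 2. Per length these were modest, at 10.1, 33.98 and 18.2 TPM in leaf. The shortest members were TR24605|c1_g1_i3|c0_g1_i1 (227 bases, 107 leaf counts), TR50818|c0_g1_i1|c0_g1_i1 (295 bases, 181) and TR21199|c2_g2_i1|c0_g1_i1 (316 bases, 1835). Their leaf TPM of 250, 202 and 1747 rests on short effective lengths, the number of positions at which RSEM lets a fragment start. For the transcript of 227 bases this was 62.6 positions in flower and 57.2 in leaf, so TPM is sensitive there to the fragment lengths assumed for each library.

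Members fell into 131 assembly loci, read from the identifiers as component, locus and transcript. Locus sizes count the deposited transcripts only, and some identifiers skip numbers. TR21251|c0_g1_i2|c0_g1_i1, for example, is numbered i2 but is the only deposited transcript of its locus. Whether transcripts were removed before deposit is not stated. Loci with 1 deposited transcript held 99 members (65.6%), and loci with 2 or more held 52 (34.4%). Among the other transcripts with at least 61 leaf counts, 48.8% lay in loci with 2 or more. The lower share was again not particular to this direction, as it was 28.3% for the flower-confined transcripts against 47.6% for others with at least 64 flower counts. Transcripts of 1 locus share sequence, and their counts are not independent.

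Where a locus had several transcripts, its other transcripts were mostly higher in leaf too. Among the deposited transcripts there were 32 such loci, of which 12 consisted of members alone (28 transcripts) and 20 mixed members with others. The 36 other transcripts had a median ratio of 13.1. Of these, 16 had a ratio of 16 to 32, 13 of 4 to 16 and 5 of 1 to 4, and 2 were higher in flower. Among the 22 with at least 61 leaf counts, 19 had a ratio of at least 4, against 12.3% of all transcripts with that many leaf counts. When counts were summed over the locus, 19 of the 32 loci reached a ratio of 32, among them 7 of the 20 mixed ones. In 14 of the 20 mixed loci a member was the most abundant transcript in leaf. The rule favours this, since every member needs at least 61 leaf counts and only 22 of the 36 others had that many.

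**Figure D5:**
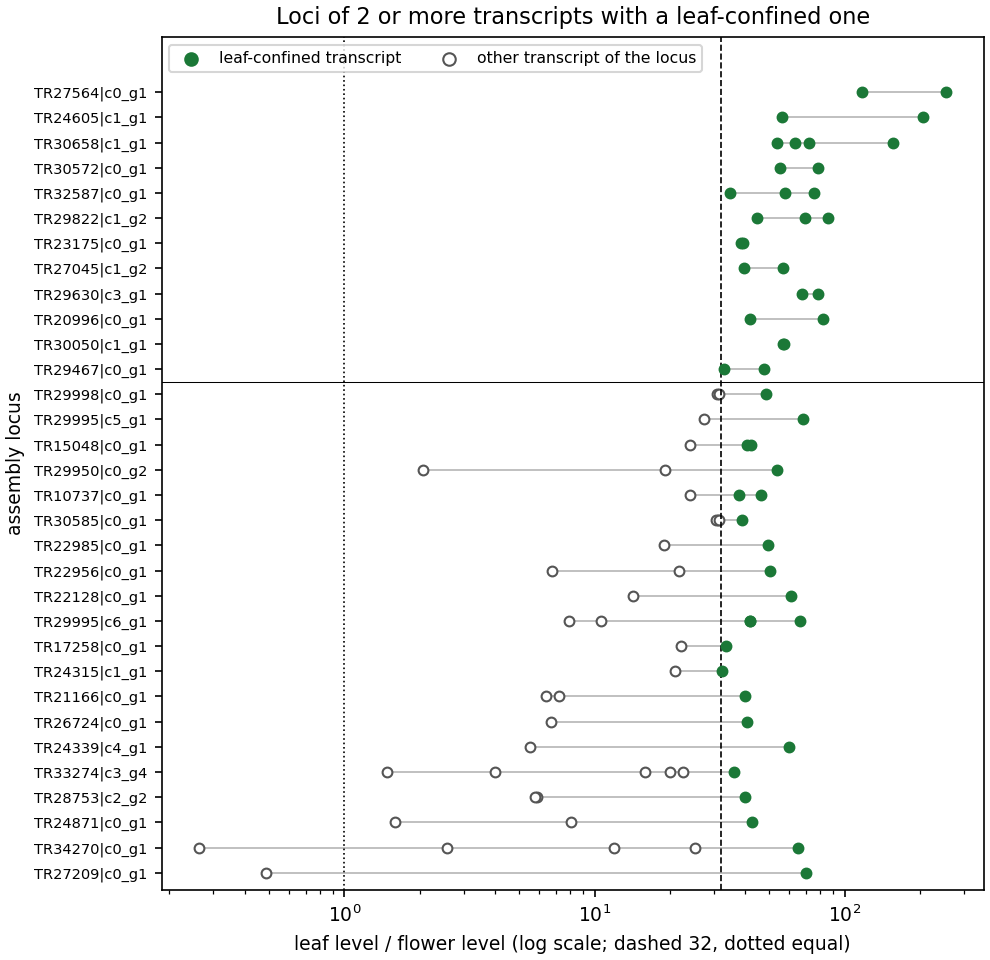
Ratio of leaf over flower level (horizontal, log scale) of every deposited transcript in the 32 loci of 2 or more transcripts that hold a member. Filled points are members and open points the other transcripts; the 12 loci above the line hold members alone. In TR27209|c0_g1 and TR34270|c0_g1 an open point lies left of the dotted line of equal levels.

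TR30658|c1_g1 was the locus with the most members, 4 of 4 transcripts. In the order of their transcript numbers they had 754, 182, 559 and 571 leaf counts and 3, 1, 6 and 9 flower counts. Their ratios were 156, 63.1, 72.1 and 53.6. The most abundant such locus was TR29822|c1_g2, with 9266 leaf and 115 flower counts over 3 deposited transcripts, all of them members. TR29822|c1_g2_i4|c0_g1_i1 carried 7396 of these leaf counts, while TR29822|c1_g2_i3|c0_g1_i1 had 1351 leaf and 18 flower counts and TR29822|c1_g2_i2|c0_g1_i1 had 519 and 10. Every deposited transcript of these 2 loci was therefore past the ratio of 32. In TR27564|c0_g1 the other deposited transcript, TR27564|c0_g1_i3|c0_g1_i1, had 454 leaf and 2 flower counts. Both deposited transcripts of this locus thus had at most 2 flower counts, and summed they stood at a ratio of 246.

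TR29995|c6_g1 was mixed. TR29995|c6_g1_i5|c0_g1_i1 and TR29995|c6_g1_i2|c0_g1_i1, of 2611 and 2596 bases, had 1540 and 1496 leaf counts and 36 and 35 flower counts. The third member, TR29995|c6_g1_i3|c0_g1_i1, had 578 and 7. The others, TR29995|c6_g1_i1|c0_g1_i1 with 328 leaf and 41 flower counts and TR29995|c6_g1_i4|c0_g1_i1 with 226 and 20, had ratios of 7.90 and 10.7. Summed, the locus stood at 30.4, just short of the rule. In TR22985|c0_g1 the member had 1386 leaf and 27 flower counts and the other transcript 663 and 34, a ratio of 19.003. In TR22956|c0_g1 the member had 1271 and 24, and the others had 210 and 8 (21.8) and 130 and 18 (6.79). In these 3 loci the members were the most abundant transcripts in leaf. The loci were picked for high leaf counts, which also enter the rule, so this is a description.

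Both transcripts that were higher in flower, singled out after their values were seen, share a locus with a member. In TR27209|c0_g1, the member TR27209|c0_g1_i2|c0_g1_i1, of 1090 bases, had 406 leaf and 4 flower counts. Its partner TR27209|c0_g1_i1|c0_g1_i1, of 1024 bases, had 497 leaf and 1051 flower counts, a ratio of 0.488, and the locus summed to 0.881. In TR34270|c0_g1, the member of 4314 bases had 313 leaf and 3 flower counts, and TR34270|c0_g1_i5|c0_g1_i1, of 4559 bases, had 136 leaf and 539 flower counts, a ratio of 0.262. Another transcript, TR34270|c0_g1_i1|c0_g1_i1, of 5093 bases, had 415 leaf and 15 flower counts, and the locus summed to 1.66. In both loci a single transcript was nearly confined to leaf while the summed locus was not. How the fragments shared by these transcripts were assigned was not tested, and the deposited counts were all whole numbers.

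The first part of the identifier groups loci into read clusters, and the members came from 122 of them. In 18 clusters there were 2 or more members, and in 7 of these the members lay in different loci. TR29995 held 5 members in 3 loci among its 11 deposited transcripts. TR29630 held 4 in 3 loci, which were all of its deposited transcripts, with leaf counts from 238 to 2089 and flower counts from 4 to 30. TR21199 had 2 loci of 1 deposited transcript each, of 585 and 316 bases, with 3648 and 1835 leaf and 27 and 9 flower counts. In TR23772 the members, of 930 and 512 bases, had 854 and 338 leaf and 17 and 6 flower counts, whereas a transcript of 2055 bases in another locus had 4385 and 1079, a ratio of 4.17. Over all these clusters, 27 transcripts from loci without a member had at least 61 leaf counts. Of them, 13 had a ratio of at least 4 and 7 were higher in flower, with a median of 3.31.

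The leaf-confined group was smaller and less extreme than its mirror image. The 792 flower-confined transcripts held 10.3% of the flower counts, and 368 of them (46.5%) had no count in leaf, against 20.5% of the leaf members without a flower count. Of the transcripts with enough counts to pass, 4.84% were flower-confined and 0.961% leaf-confined. Ratios of 128 or more were shown by 147 transcripts in the flower direction and 10 in the leaf direction, and the highest ratios were 1489 and 255. These are counts from 1 pair of libraries, with no replicate of either tissue.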

How the data were processed

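Polyadenylated RNA of 1 flower and 1 leaf sample was sequenced from strand-specific libraries, per the labels' protocols. The submitters' processing notes name Trimmomatic for trimming and RSEM for quantification. No version, aligner, assembler or reference is stated in these sources. The authors deposited for each of 81913 transcripts an expected count (whole numbers throughout), TPM and FPKM, and an isoform percent that, as deposited, was 0 or 100. The deposited series-wide FPKM table held the same values for 151 of 151 members in each tissue (tolerance 0.005).

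From these, levels were computed as (expected count + 2) / library total; CPM was not rescaled further. A single count is worth 0.134 CPM (flower) or 0.138 CPM (leaf). Exact intervals are Clopper-Pearson, at 95%. With 1 library per tissue no test was made. The rule was checked on simulated data. Alternatives used TMM factors (edgeR 4.0.16), DESeq2 1.42.0 size factors (R 4.3.3), an added count of 0.5, TPM or FPKM, other ratios, a CPM minimum and assembly loci. Python 3.11.15, numpy 2.4.6, pandas 2.3.3, scipy 1.17.1 and matplotlib 3.10.9 were used. The members and lists were chosen with earlier results of these data known. Named transcripts are the members highest in leaf count (10), in ratio (5), in flower count (3) and in leaf count without a flower count (5), the 3 longest and 3 shortest, 3 on each side of the limit, and the transcripts of the 3 loci with most members and of the 3 most abundant mixed loci. Others are named as examples chosen after their values were seen.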

Additional observations from a re-analysis of the deposited data

How the results depend on the processing

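No paired analysis was possible because each tissue has 1 library, and for the same reason leaving out a replicate was not an option. Beyond the planned results, the number of multi-transcript loci and the length difference were recomputed under alternatives chosen after seeing the data. The number of members (151) was 162 with TMM factors, 145 with DESeq2 size factors and 124 when counted over assembly loci. The TMM factors (1.018 in flower, 0.983 in leaf) raised every ratio alike, so no member could be lost with them. Both DESeq2 size factors were 1, so that setting used the counts without any scaling. With an added count of 0.5 in place of 2 there were 469 members, 272 without a flower count, 152 in 98 multi-transcript loci, a median length of 799 bases, and shares of 2.47% of leaf and 0.0363% of flower counts. With FPKM and a pseudocount of 0.1 there were 4561, of which 4375 had no flower count, 349 lay in 274 multi-transcript loci, the median length was 275 bases, the difference from the median of the others was -594 bases (in place of -346), and the shares were 2.76% and 0.0377%. A pseudocount of 1 gave 92 members with TPM and 91 with FPKM, 77 of them shared with the 151 in each case, 17 without a flower count, 25 in 16 multi-transcript loci, median lengths of 845.5 and 836 bases, leaf shares of 2.23% and 1.96%, and flower shares of 0.0367% and 0.0284%. A ratio of at least 16 gave 457 members, 97 without a flower count, 183 in 109 multi-transcript loci, and shares of 4.24% and 0.111%. A ratio of at least 64 gave 43, with 5, 16 in 12, 1.09% and 0.00916%. A leaf CPM of at least 50 left 79, with 1, 24 in 16, 2.10% and 0.0319%. TMM factors gave shares of 2.67% and 0.0463%, and DESeq2 size factors 2.19% and 0.0315%. Over assembly loci the leaf share was 2.18%, and 25 loci had 2 or more transcripts. Members were shorter than other transcripts of enough leaf counts under each of the 10 alternatives, with differences from -594 to -245.5 bases. TPM and FPKM divide by length, so length enters the rule in those settings. Most of the other settings contain the 151 members or are drawn from them, so the alternatives are not independent. None of the 45 transcripts named by rule turned direction under the 6 alternatives run for them. This says little about stability, since all had a main ratio of at least 6.79. The examples named after their values were seen were not run. With TPM and a pseudocount of 1, 26 of the 37 members named by rule stayed past 32. Where a change does not follow from the altered threshold or added value itself, the cause was not tested. Depth limits most the 99 members with fewer than 10 flower counts.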
